A study of Mus musculus with 4 samples.

Results

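The actin capping and severing proteins described here are 8 mouse genes: Capza1, Capza2, Capzb and Capg, whose products cap filament ends, and Cotl1, Cfl1, Cfl2 and Dstn, whose products share the cofilin type of actin-binding fold. Their members were all probe sets annotated with exactly 1 of these symbols, which gave 22 of the 45037 probe sets that are not array controls, and 8 of the 18193 genes with such a probe set. The set was chosen by the genotype difference of Capzb, of which 3 probe sets were lower in cells without RBP2, so the comparison of genotypes is a description for these genes, and counts of test calls among them stand beside those of all probe sets with nothing read from them. RNA came from primary mouse embryonic fibroblasts at passage 3, cells grown directly from embryos, and was hybridised to 1-colour Affymetrix arrays. The groups were RBP2-/- MEF, called RBP2-null below, with 2 independent lines, and wild type MEF, with 2 independent lines, with 1 array for each line. RBP2 is a histone H3 lysine 4 demethylase now called Kdm5a; the strain, the embryonic age and the deleted part of the gene are not given in the sources used here.

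Actin filaments grow and shrink mainly at their barbed ends. Capping protein, an obligate heterodimer of an alpha subunit (Capza1 or Capza2) and a beta subunit (Capzb), binds those ends and stops both growth and loss. Cofilin and its relatives bind along filaments, sever older stretches and speed the return of actin monomers, and in fibroblasts the balance of these activities shapes the leading edge and stress fibres.

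The values are probe set signals brought to a common distribution over the arrays by quantile normalization, called normalized signal. Levels and fold changes were taken as log2 of normalized signal plus a pseudocount of 9, which understates differences of dim probe sets. The scaling matters because the trimmed mean of the deposited signal on the brightest array, RBP2-null replicate 2, was 2.46 times that on the dimmest, wild-type replicate 1. Wild-type replicate 1 also stood apart from the other arrays, with correlations across kept probe sets of 0.927 to 0.928, against 0.948 to 0.965 among the others. Of the 11 fibroblast markers, 11 were kept by the filter on dim probe sets, with normalized Vim signal from 8685 to 9964 over the 4 arrays. Not all of them were this even between lines. Pdgfra had 168 and 448 in RBP2-null lines and 43.7 and 479 in wild-type lines, and Lum had 69.3 and 303, against 37.0 and 118. The targeted gene Kdm5a had a normalized signal of 75.5 and 80.7 in RBP2-null lines and 96.5 and 191 in wild-type lines on its brightest probe set. Both RBP2-null lines were lower on 2 of its 5 kept probe sets and the groups overlapped on the other 3, and whether any of these probe sets lies in the deleted part is unknown. Nothing says whether lines came from separate litters, and with arrays of mixed RNA, fewer cells of a type and less RNA per cell cannot be told apart.

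The 3 subunit genes of capping protein are set side by side below by the 250 bases before an annotated start, because the alpha and beta subunits work as 1 complex while their array signals differed. The sequences are from the RefSeq promoter table of build GRCm38.p6, in which 7 of the 8 genes were found. Capitals mark GGGCGG, or CCGCCC on the other strand, the letters that the DNA-binding domain of RBP2 recognises. These letters are also the core of the GC box bound by Sp1, so both motifs coincide. The Capzb window is chr4:139193861-139194110 on the plus strand, that of Capza1 is chr3:104864506-104864755 on the minus strand, and that of Capza2 is chr6:17636760-17637009 on the plus strand.
Capzb: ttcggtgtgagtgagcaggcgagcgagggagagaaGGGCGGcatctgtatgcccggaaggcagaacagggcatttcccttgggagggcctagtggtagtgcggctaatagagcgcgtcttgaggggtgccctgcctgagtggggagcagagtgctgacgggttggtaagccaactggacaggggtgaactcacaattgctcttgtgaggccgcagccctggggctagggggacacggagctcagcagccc
Capza1: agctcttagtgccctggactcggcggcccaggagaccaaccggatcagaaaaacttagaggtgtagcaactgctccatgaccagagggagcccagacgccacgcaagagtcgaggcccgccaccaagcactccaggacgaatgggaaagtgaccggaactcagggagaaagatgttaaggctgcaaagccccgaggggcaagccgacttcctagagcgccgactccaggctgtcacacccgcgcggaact
Capza2: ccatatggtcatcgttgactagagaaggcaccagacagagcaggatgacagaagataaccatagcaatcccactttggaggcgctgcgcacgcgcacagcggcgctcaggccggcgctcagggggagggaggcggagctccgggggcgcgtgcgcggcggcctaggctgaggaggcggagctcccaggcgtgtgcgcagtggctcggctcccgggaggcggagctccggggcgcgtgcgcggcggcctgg
The Capzb window held 1 such match, and the windows of Capza1 and Capza2 held 0. Among the other genes, the windows of Cfl2 and Dstn held 6 and 3 matches, and those of Capg and Cfl1 held 0. In all, 3 of the 7 windows held the motif on either strand, beside 32.7% of the 32851 windows in the table. The CArG box, the site of serum response factor, was in 0 of the 7 windows and in 1.47% of all windows. These matches describe the letters in the windows and say nothing of binding in these cells.

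Of the 22 probe sets, 21 were among the 27022 kept as the upper 60% by mean signal, and 1 dim Capzb probe set was not. With limma's moderated test and Benjamini-Hochberg adjustment, 0 of the 21 had an adjusted p below 0.05, beside 1 of all 27022, or 0.0037%. At an unadjusted p below 0.05 there were 5 of the 21, the 3 Capzb probe sets on the lower side and 2 Cotl1 probe sets on the higher side, beside 2.98% of all. Both RBP2-null arrays lay below both wild-type arrays for 4 of the 21, beside 14.9% of all, and above them for 2, beside 14.6% of all. The log2 fold change was below 0 for 12 and above 0 for 9, beside 49.6% below 0 among all kept probe sets, and its median was -0.015 for the 21 and 0.0031 for all. With median-centred arrays 15 of the 21 lay above 0 and without scaling 16, or 13 under either once the median of all probe sets was taken off. That last count is the same for both by construction, since these settings differ only by a constant on each array. Because this comparison was used to choose the genes, nothing is read from these counts.

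Capzb, the beta subunit, was below both wild-type lines in each RBP2-null line on each of its 3 kept probe sets, and most of the difference lay in RBP2-null replicate 1. Probe set 1424168_a_at had a normalized signal of 478 and 1029.7 in RBP2-null replicates 1 and 2, against 1211 and 1281 in wild-type replicates 1 and 2. The RBP2-null lines stood far apart from each other here, while the wild-type lines were close. Probe set 1417259_a_at had 589 and 718 in the RBP2-null lines, against 1000.2 and 940.2 in the wild-type lines. Probe set 1453960_a_at had 547 and 729 in the RBP2-null lines, against 975 and 871 in the wild-type lines. On these probe sets RBP2-null replicate 1 was again the lowest array, and the groups did not overlap.

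The log2 fold change of Capzb was -0.82 ± 0.32 (SE) on 1424168_a_at, -0.57 ± 0.20 on 1417259_a_at and -0.54 ± 0.21 on 1453960_a_at. As shares of the wild-type mean, the RBP2-null means were 56.7%, 67.4% and 68.9%. The mean log2 fold change over these probe sets was -0.64. It was -0.34 with RBP2-null replicate 1 left out and -0.94 with the other RBP2-null line left out, so a single line carried much of it. On 1424168_a_at the same 2 values were -0.27 and -1.36. The suffix of these identifiers marks probe sets that read several transcripts of 1 gene, and Capzb gives rise to muscle and non-muscle beta isoforms, so which isoform was measured is not resolved.

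As deposited, before scaling, the Capzb groups overlapped. The deposited signal on 1424168_a_at was 394 and 1558 in the RBP2-null lines and 726 and 1322 in the wild-type lines. On 1417259_a_at it was 485 and 1114 in the RBP2-null lines and 600.4 and 966 in the wild-type lines, and on 1453960_a_at 451 and 1128 in the RBP2-null lines and 587 and 893 in the wild-type lines. In each case RBP2-null replicate 1 was the lowest and RBP2-null replicate 2 the highest of the arrays. The order of the groups on Capzb therefore depends on how arrays are brought to a common level. With arrays centred on their medians instead, the log2 fold changes were -0.52, -0.25 and -0.22, where the median of all probe sets was 0.18. With no scaling they were -0.32, -0.049 and -0.019, where the median of all was 0.38. Relative to that median the values were -0.70, -0.43 and -0.40 under either setting. These are equal by construction, since the settings differ only by a constant on each array. In both settings the groups overlapped on 3 of the 3 probe sets.

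The fourth Capzb probe set, 1431668_at, was too dim to be kept. Its normalized signal was 2.45 and 7.40 in the RBP2-null lines and 4.65 and 25.1 in the wild-type lines. All of these values but 1 lay below the pseudocount, the groups overlapped, and the values carry no order of the genotypes.

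**Figure D1:**
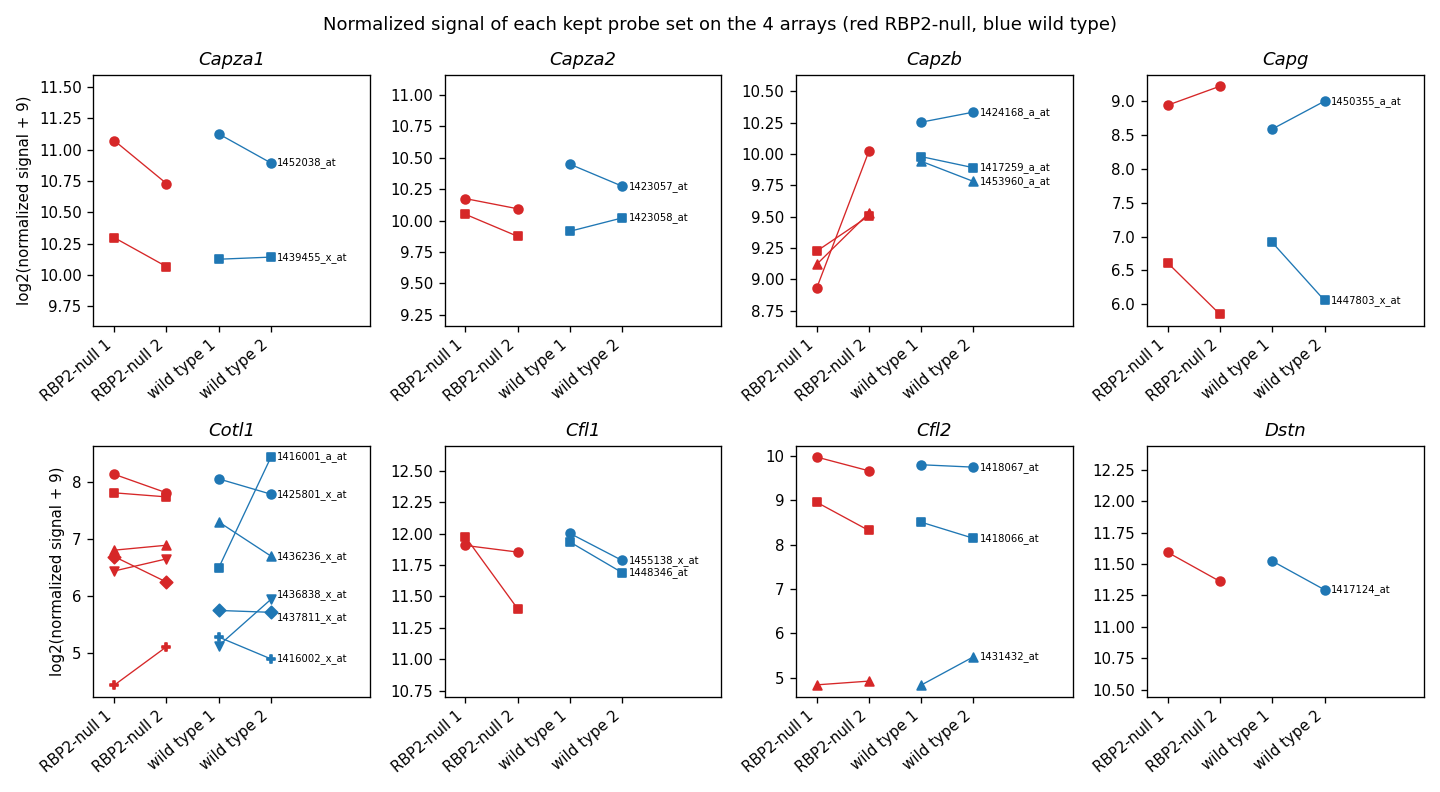
Log2 of normalized signal plus 9 for each kept probe set of the 8 genes (1 panel each), with RBP2-null replicates 1 and 2 in red and wild-type replicates 1 and 2 in blue, and lines joining the 2 lines of a genotype on 1 probe set. Capzb is the gene whose 3 kept probe sets all lie lower in both red points than in both blue points, with RBP2-null replicate 1 lowest at 8.93 on 1424168_a_at.

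The alpha subunits, with which Capzb pairs, did not show the same pattern. Capza1 on 1452038_at had a normalized signal of 2144 and 1689 in the RBP2-null lines, against 2225 and 1893 in the wild-type lines, and the groups overlapped. Its log2 fold change there was -0.11 ± 0.19 (SE), and on 1439455_x_at it was 0.048 ± 0.18 (SE). Capza2 on 1423057_at had 1147 and 1084 in the RBP2-null lines, against 1389 and 1229 in the wild-type lines. Both RBP2-null lines were lower, with a log2 fold change of -0.23 ± 0.18 (SE), which is 85.4% of the wild-type mean. The other Capza2 probe set, 1423058_at, had 1051 and 929 in the RBP2-null lines and 956 and 1030.0 in the wild-type lines, with overlap and a log2 fold change of -0.0058. The Capza2 probe sets thus differed in whether the groups were separate.

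Setting Capzb against the alpha subunits on the same array removes any common factor of that array without a normalization. This ratio was chosen after seeing the data, and only its differences between arrays have a meaning, since probe sets differ in brightness per transcript. The mean log2 ratio of deposited Capzb signal to that of the 4 Capza1 and Capza2 probe sets was -1.39 and -0.48 in RBP2-null replicates 1 and 2, against -0.36 and -0.35 in wild-type replicates 1 and 2. The ratio was lower in both RBP2-null lines, by a wide margin in replicate 1 and a narrow one in replicate 2, and the mean difference was -0.58. On 1424168_a_at alone the ratio was -1.55 and -0.17 in the RBP2-null lines and -0.17 and -0.011 in the wild-type lines, so there RBP2-null replicate 2 lay between the wild-type lines. On 1417259_a_at it was -1.25 and -0.65 in the RBP2-null lines, against -0.45 and -0.46 in the wild-type lines, and on 1453960_a_at -1.36 and -0.63, against -0.48 and -0.58. On these the RBP2-null lines stayed below both wild-type lines.

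**Figure D2:**
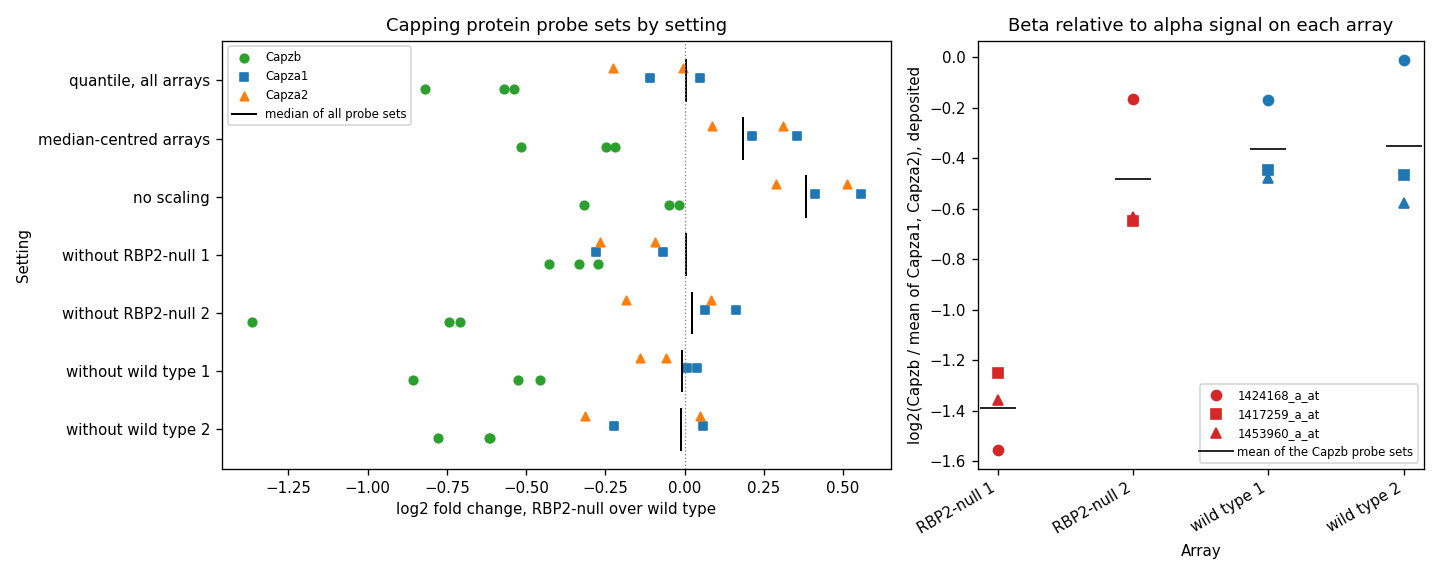
Left, log2 fold change (RBP2-null over wild type) of the kept probe sets of Capzb, Capza1 and Capza2 under each scaling and with each array left out, with the median of all probe sets as a black bar; right, log2 ratio of deposited Capzb signal to the mean of the Capza1 and Capza2 probe sets on each array. The Capzb points lie left of the black bar in all 7 settings, and RBP2-null replicate 1, at a mean ratio of -1.39, is far from the other arrays.

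Capg, a gelsolin relative that caps barbed ends in the presence of calcium without severing and is abundant in macrophages, had probe sets that pointed in different directions. On 1450355_a_at its normalized signal was 483 and 588 in the RBP2-null lines, against 376 and 503 in the wild-type lines. The groups overlapped, with a log2 fold change of 0.29 ± 0.23 (SE). On 1447803_x_at it was 88.8 and 48.8 in the RBP2-null lines and 112 and 57.6 in the wild-type lines, again with overlap, and the log2 fold change was -0.25 ± 0.39 (SE).

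Cotl1, coactosin-like protein, binds along actin filaments and is abundant in leukocytes, and 5 of its 6 probe sets carry the suffix of probes that can bind other transcripts. Probe set 1436838_x_at had a normalized signal of 77.5 and 91.3 in the RBP2-null lines, against 25.9 and 52.4 in the wild-type lines, and 1437811_x_at had 94.1 and 66.6, against 44.6 and 43.4. Both RBP2-null lines were higher on these probe sets, and the log2 fold changes were 1.01 ± 0.36 (SE) and 0.74 ± 0.31 (SE). They were higher as deposited too, but without scaling the median log2 fold change of all kept probe sets was 0.38. As deposited, 5 of the 21 kept probe sets had both RBP2-null lines higher. Cfl1 1448346_at, Cfl2 1418066_at and Dstn 1417124_at were among them. The remaining 4 probe sets of Cotl1 had overlapping groups.

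The brightest Cotl1 probe set, 1425801_x_at, had 271 and 215 in the RBP2-null lines and 256 and 211 in the wild-type lines, with a log2 fold change of 0.052. Probe set 1416001_a_at, the only one without that suffix, had 215 and 204 in the RBP2-null lines, while the wild-type lines had 81.0 and 337. Its log2 fold change of 0.31 turned to -0.66 without wild-type replicate 1. The values for 1436236_x_at and 1416002_x_at were -0.15 and -0.31. The Cotl1 probe sets therefore gave no common direction, and the higher values were on dim probe sets.

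Of 12 leukocyte markers, 8 were kept, 7 of them with a log2 fold change below 0, and their summed normalized signal was 434 and 412 in RBP2-null lines and 601 and 456 in wild-type lines. The pan-leukocyte marker Ptprc was dim, at 4.50 and 2.88 in RBP2-null lines and 15.5 and 10.9 in wild-type lines. Its RBP2-null values lay below the pseudocount of 9. Cd68, Itgam and Lcp1 were not kept either, and on each of them the groups overlapped. The part of the leukocyte markers in the Capg and Cotl1 values was not tested.

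Cfl1, the main cofilin of non-muscle cells, differed less between the groups than between the lines of 1 genotype. On 1455138_x_at its normalized signal was 3831 and 3693 in the RBP2-null lines, against 4096 and 3525 in the wild-type lines. On 1448346_at it was 4016 and 2697 in the RBP2-null lines, against 3905 and 3295 in the wild-type lines. The groups overlapped on both, with log2 fold changes of -0.015 ± 0.16 (SE) and -0.12 ± 0.22 (SE). The first of these carries the suffix of probes that can bind other transcripts, so a near-identical copy of Cfl1 could add to its signal.

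Dstn, or destrin, is the actin-depolymerizing relative of cofilin and had 1 probe set. Its normalized signal was 3080.0 and 2622 in the RBP2-null lines, against 2935 and 2504 in the wild-type lines. In each genotype replicate 1 was the higher line, the groups overlapped, and the log2 fold change was 0.068 ± 0.18 (SE).

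Cfl2, the cofilin of muscle, which fibroblasts express too, had its clearest probe set at 1000.2 and 804 in the RBP2-null lines and 885 and 852 in the wild-type lines. The groups overlapped there, with a log2 fold change of 0.046 ± 0.20 (SE) on 1418067_at. On 1418066_at the normalized signal was 489 and 311 in the RBP2-null lines and 355 and 274 in the wild-type lines, with a log2 fold change of 0.31 ± 0.27 (SE). Without RBP2-null replicate 1 that value was -0.0061. The third probe set, 1431432_at, was dim at 19.6 and 21.3 in the RBP2-null lines and 19.5 and 35.3 in the wild-type lines, with a log2 fold change of -0.27.

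Acta1, skeletal muscle actin, had 1137 and 226 in the RBP2-null lines and 663 and 295 in the wild-type lines, so that, as on 1418066_at, RBP2-null replicate 1 was highest and wild-type replicate 1 next. Of 10 skeletal muscle markers 3 were kept, with a summed normalized signal of 1238 and 329 in RBP2-null lines and 745 and 382 in wild-type lines. Acta1 made up most of that sum, and the other kept markers did not share its order of arrays. Myod1 had 12.35 and 27.5 in RBP2-null lines and 38.5 and 36.5 in wild-type lines. Ckm had 89.1 and 75.4, against 44.1 and 50.05. The part of these markers in the Cfl2 values was not tested.

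**Figure D3:**
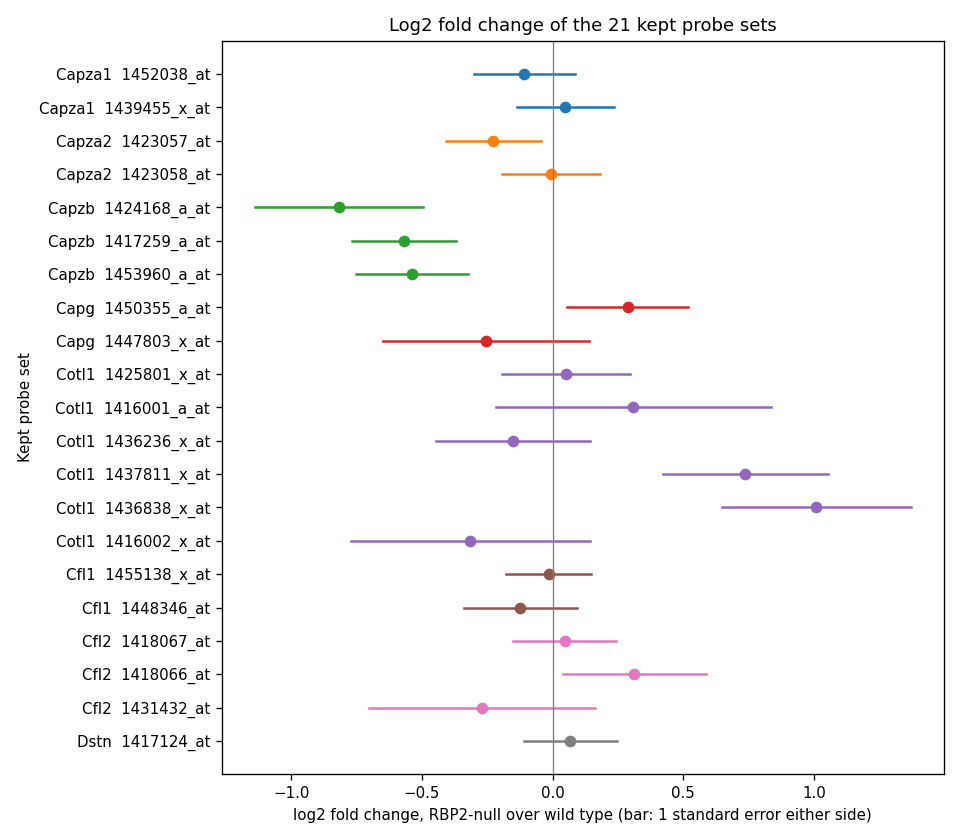
Log2 fold change, RBP2-null over wild type, of the 21 kept probe sets by gene, with bars of 1 standard error of the limma fit on either side. The Capzb values of -0.82, -0.57 and -0.54 lie to the left, the Cotl1 values spread from -0.31 to 1.01, and the Capza1, Capza2, Cfl1 and Dstn values lie between -0.23 and 0.068.

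Across the 21 kept probe sets, the gap between the lines of 1 genotype was larger than the difference between genotypes for 16. The 5 others were Capzb 1417259_a_at and 1453960_a_at, Capza2 1423057_at, and Cotl1 1437811_x_at and 1436838_x_at. With each array left out in turn, 14 of the 21 changed sign at least once and 7 did not. The 7 were the 3 of Capzb, Capza2 1423057_at, Capg 1450355_a_at, and Cotl1 1437811_x_at and 1436838_x_at. On all of these but the Capg probe set the groups did not overlap, so leaving out an array could not change the sign. No share over all kept probe sets stands beside the counts of this paragraph, and nothing is read from them.

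By array profile, the genes most like Capzb were Ptafr, Poln and Cngb1, judged by the root mean square difference of centred log2 levels over the 4 arrays. The differences were 0.014 for Ptafr, 0.038 for Poln and 0.039 for Cngb1, and 49 of 13089 genes lay within 0.1. With 4 arrays such likeness is easily met, and all 3 genes were dim. Ptafr, for example, had a normalized signal of 11.2 and 21.7 in RBP2-null lines and 30.5 and 28.3 in wild-type lines.

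Other genes of actin filament turnover were taken by list, each on its brightest kept probe set. Of 128 genes in 8 lists, 115 had a probe set of their own and 102 were kept. With limma, 0 of the 102 had an adjusted p below 0.05, beside 0.00764% of all 13097 genes. At an unadjusted p below 0.05 there was 1 higher, beside 1.16% of all genes, and 2 lower, beside 1.44%. Both RBP2-null arrays lay below both wild-type arrays for 20 of the 102, beside 15.8% of all genes, and above them for 15, beside 13.4%. The log2 fold change was below 0 for 57 and above 0 for 45, beside 51.5% below 0 among all genes, and the median was -0.033, against -0.010 for all genes.

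The regulators of capping protein and other barbed-end binders had 9 of 15 kept genes below 0 and a median log2 fold change of -0.18, and 0 passed the threshold. Mtpn, or V-1, which binds capping protein and keeps it from filament ends, had a normalized signal of 3353 and 2730.07 in RBP2-null lines, against 2337 and 2544 in wild-type lines. Both RBP2-null lines were higher on this probe set, with a log2 fold change of 0.31 ± 0.18 (SE), while its other 5 kept probe sets lay between -0.043 and 0.18. Carmil1 and Cd2ap, which bind capping protein through a shared motif and can loosen it from filaments, had 0.17 and -0.072, while the remaining Cd2ap probe sets had 0.35 and 1.08. Twf2, a twinfilin that binds actin monomers and capping protein, had 0.40 ± 0.27 (SE), and 0.91 on its other kept probe set. The lowest value of this list was that of Eps8l2, at -0.68 ± 0.29 (SE), and the highest that of Carmil3, at 1.08 ± 0.50 (SE). Carmil3 was dim, at 34.6 and 27.3 in RBP2-null lines and 17.4 and 4.50 in wild-type lines.

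The gelsolin family, which severs and caps filaments with calcium, had 4 of 6 kept genes below 0 and a median log2 fold change of -0.11, and 0 passed. Gsn itself had 2482 and 2497 in RBP2-null lines and 2441 and 2251 in wild-type lines, with a log2 fold change of 0.086 ± 0.16 (SE), while its other 4 kept probe sets lay between -0.20 and 0.54. Avil and Scin, both dim, marked the ends of this list, at -0.48 and 0.10.

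Regulators and cofactors of cofilin had 14 of 20 kept genes below 0 and a median of -0.087, and 0 passed. Tesk1, a kinase that phosphorylates and inactivates cofilin, had a normalized signal of 99.6 and 78.6 in RBP2-null lines, against 17.9 and 60.3 in wild-type lines. Its log2 fold change of 1.18 ± 0.45 (SE) was the highest of the list, and the wild-type lines were far apart. Limk1, another cofilin kinase, had 0.15 and -0.77 on its kept probe sets, and the phosphatase Ssh1 had -0.14, with 0.094, 0.034 and 0.67 on its other kept probe sets. Wdr1 and Cap1, which help cofilin to take filaments apart, had -0.11 and 0.35. For Cap1 the RBP2-null lines had 2291 and 819, against 1236 and 933 in the wild-type lines, so that 1 line set the difference. Coro6 had the lowest value, -0.73, on a dim probe set.

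Actins and monomer binders had 6 of 11 kept genes below 0 and a median of 0 at 2 decimals, and 0 passed. Actb had 9155 and 8224 in RBP2-null lines and 9964 and 9387 in wild-type lines, with a log2 fold change of -0.16 ± 0.15 (SE). Actg1, the other cytoplasmic actin, had 0.013 and the monomer binder Pfn1 had -0.031. Pfn2 and Mtss1 marked the ends of this list, at -0.24 and 0.33, but other Mtss1 probe sets had -0.29 and 0.0021.

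The Arp2/3 complex, which nucleates branches, and its activators had a median of 0.021 over 16 kept genes, with Arpc2 at -0.048, Wasf3 at -0.35 and Was at 0.55. The Was probe set was dim, at 25.2 and 26.1 in RBP2-null lines and 23.0 and 8.5 in wild-type lines. Formins and other elongation factors, which protect barbed ends from capping, had a median of -0.0062 over 14. Diaph1, a formin, had 168 and 125 in RBP2-null lines, against 277 and 232 in wild-type lines. Both RBP2-null lines were lower, with a log2 fold change of -0.77 ± 0.26 (SE), but its other kept probe set had 0.19. The highest value was that of Fhod3, at 0.42 on a dim probe set. None of the genes in these lists passed the threshold.

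Among 8 kept pointed-end cappers and tropomyosins the median was 0.033, with Tpm2 lowest at -0.46, Tmod1 highest at 0.34 and Tmod3 at 0.048. The other kept probe sets of Tmod3 had -0.20, 0.78 and -0.35, with no common direction. Capping protein is also a part of the dynactin and WASH complexes, which serve microtubule transport and endosomes. These complexes had a median of -0.033 over 12 kept genes, with Dctn1 at -0.22 and Actr1a, the actin-like filament that Capzb caps in dynactin, at 0.022 and, on its other kept probe set, -0.39. Dctn5 was lowest at -0.37. Dctn6 was highest, at 658 and 799.8 in RBP2-null lines and 250.3 and 650.05 in wild-type lines, with a log2 fold change of 0.83 ± 0.39 (SE). In these lists 0 genes passed the threshold.

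**Figure D4:**
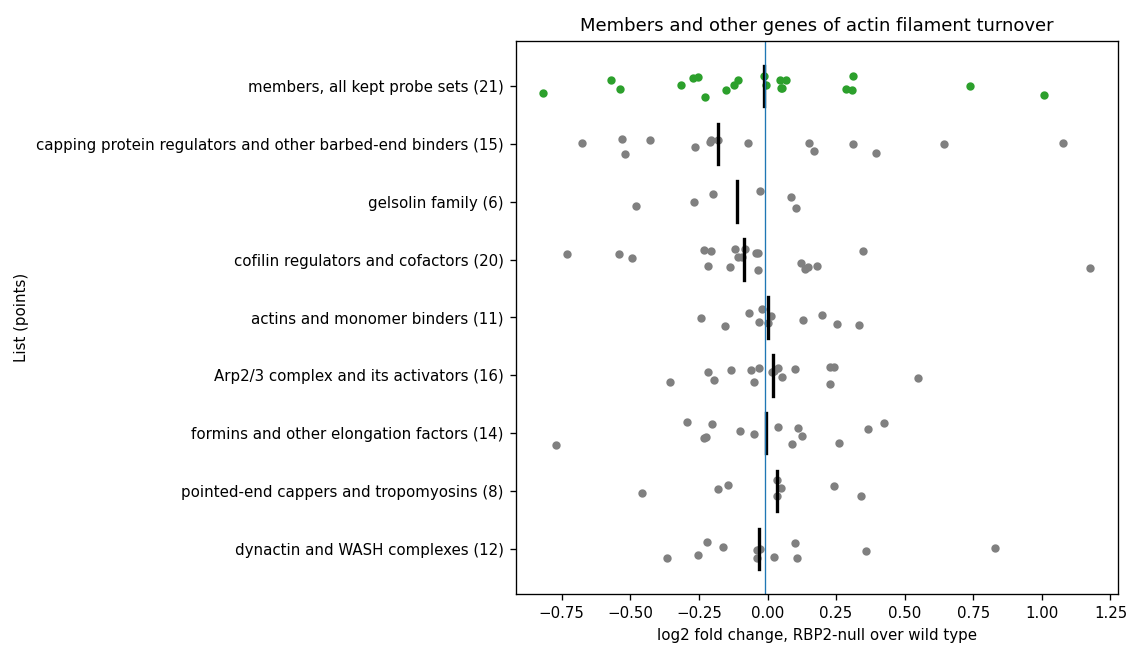
Log2 fold change, RBP2-null over wild type, of the 21 kept probe sets of the 8 genes (green) and of the kept genes of each list on their brightest probe set (grey), with black bars at list medians and a blue line at the median of all genes, -0.010. List medians lie between -0.18 and 0.033, and the vertical scatter within a row has no meaning.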

How the data were processed

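The table deposited by the authors has a linear intensity for each of 45101 probe sets, of which 64 are controls, on each array. The RNA was total RNA with a biotin label, per the labels; how the authors summarised probes or corrected background is not stated in these sources. Arrays whose trimmed means (2% off each end) differ by over 10% were to be quantile normalized, and they did differ. Controls were left out, a pseudocount of 9 (25th percentile of all values) was added, log2 taken, and the upper 60% by mean kept. The genotypes were compared with limma 3.58.1 (R 4.3.3, lmFit, and eBayes with a mean-dependent prior), two-sided, with Benjamini-Hochberg adjustment over all 27022 kept probe sets. The procedure was also run on simulated data. The differences planted there were far larger than those given here, so that run says nothing of differences of this size. An exact permutation test of 2 lines against 2 cannot go below p = 0.333. The p-values rest on the spread between these lines and on a prior variance drawn from all kept probe sets. Only 4 arrays stand behind each of them. A platform annotation gave 1 symbol for 34945 probe sets, several for 932 and none for 9160.

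The members and lists were chosen with earlier results of these data known. The genes named are the members on every probe set, the lowest and highest value of each actin list, a fixed set of direct partners (Twf1 had no probe set of its own), Kdm5a, markers beside the results they touch, and the 3 genes with the most similar profile. Alternatives covered pseudocount, filter, scaling, variance model, replicate block, probe set type and each array left out. Promoter sequences came from RefSeq, build GRCm38.p6.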

Additional observations from a re-analysis of the deposited data

How the results depend on the processing

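The mean Capzb log2 fold change, -0.64, was -0.33 with median-centred arrays, -0.13 without scaling, and from -0.94 to -0.34 with each array left out. Of these settings, only the scaling could have changed its sign. After quantile normalization the groups did not overlap on any kept Capzb probe set, which fixes the sign with an array left out or another pseudocount. The filter, variance model and block do not alter the fold change, and the set was chosen by this difference. No value exists with only probe sets without an _s, _x or _a suffix, since the kept Capzb probe sets all carry one. With no mean-dependent variance the standard errors were 0.40 on 1424168_a_at, 0.26 on 1417259_a_at and 0.28 on 1453960_a_at. The members with a lower value at an unadjusted limma p below 0.05, 3, were 0 in that setting, with median-centred arrays and without scaling. Those with a higher value, 2, were 2, 2 and 0, beside 945, 936 and 189 of all 27022 in either direction. The number of the 8 genes' probe sets with both RBP2-null arrays below both wild-type arrays, 4, was 1 with median-centred arrays, 0 without scaling, 1 among the 8 probe sets without a suffix, and 5 to 10 with an array left out, where 1 array stands for a genotype and is assumed to vary like the others. The share of all kept probe sets moved as well. It was 14.9% in the main fit, 7.98% with median-centred arrays and 2.18% without scaling. Among probe sets without a suffix it was 15.2%, and with an array left out 30.2% to 36.5%. Nothing is read from these counts. Their median, -0.015, was 0.27 with median-centred arrays and 0.47 without scaling, where the median of all kept probe sets was 0.18 and 0.38, and -0.11 to 0.13 with an array left out. With 2 lines per genotype, leaving out an array cannot move a single probe set by more than 1 SD between lines. Still, 14 of the 21 changed sign at least once that way, with no share over all probe sets beside this count. Under the other settings 26 values moved by more than 1 SD, all on a change of scaling. The number of probe sets past the limma threshold over all genes, 1, was 0 with no filter on dim probe sets, 0 with no scaling, 0 with no mean-dependent variance, 2 with median-centred arrays, and 0 to 42 with an array left out. The 42 were reached when wild-type replicate 2 was left out, against 2 for wild-type replicate 1 and 0 for RBP2-null replicate 2. The cause was not tested. With the replicate number as a block, 49 passed, among them 1 of the 21 (Capzb 1424168_a_at) and 1 of the 102 other actin genes on their brightest probe set (Dctn6, adjusted p = 0.049 in limma); Actr3 also passed on a dimmer probe set (0.81, adjusted p = 0.016 in limma). Nothing says that the numbers pair the lines, which deviated together with a correlation of 0.11 across probe sets, so this fit was not taken as the result.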
